A study of Mus musculus with 21 samples.

Results

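The 10 genes described here encode proteins that mark the surface of endothelial cells, which form the inner lining of blood vessels, or that these cells secrete. They are Ly6a, Ly6c1, Emcn, Mcam, Cd93, Clec14a, Ecscr, Egfl7, Ctla2a and Itm2a, taken by name from the 24206 uniquely named genes of the authors' table, and each was found once. Ly6a, Ly6c1, Ctla2a and Itm2a were picked for how they vary between these groups, so their values are a description with no test. The other 6 were picked by role, though with earlier results of these data known, and were tested. Levels are the authors' RPKM values, read counts scaled to gene length and library size.

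Brains of C57BL/6 mice, 12 to 20 weeks old, were the source of the endothelial cells, which were sorted as live cells that carried CD31 and lacked the leukocyte protein CD45 and the pericyte protein PDGFRb. The stroke experiment holds 16 libraries, 4 per group, from mice whose middle cerebral artery was blocked for 1 h and reperfused for 1 d. Cko-ST and Cko-NS are the stroke and the non-stroke hemisphere of Gpr124 flox/-; ROSA-CreER+ mice, and WT-ST and WT-NS are those hemispheres of Gpr124 flox/+; ROSA-CreER+ mice. The mice called WT therefore also carried a floxed allele and Cre, the ROSA locus does not limit Cre to endothelial cells, and the non-stroke hemisphere comes from operated mice. A separate beta-catenin experiment holds 3 Bcat libraries (Ctnnb1 lox(ex3)/+; Cdh5-CreER+) and 2 WT libraries (Ctnnb1 +/+; Cdh5-CreER+) labelled as normal condition. Cdh5-CreER drives Cre in endothelial cells, and recombination of the lox(ex3) allele stabilizes beta-catenin. Another kit and total RNA were used for that experiment, so no level is compared between the experiments. The series asked which genes Gpr124, a membrane protein that boosts Wnt signalling in brain vessels, and beta-catenin control in adult brain endothelium. Whether each library is a mouse of its own is not labelled, and the p-values speak only of the spread among these libraries, which may be technical.

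Endothelial cells carry a coat of surface glycoproteins that sets how they meet blood cells, matrix and growth factors. Ly6a (Sca-1) and Ly6c1 are small GPI-anchored proteins of the Ly6/uPAR family, found in mice on stem cells, leukocytes and, at high level, on brain capillaries. Emcn is an anti-adhesive sialomucin of capillaries and veins, Mcam (CD146) is an adhesion molecule of endothelial and mural cells, Cd93 and Clec14a are related lectin-like receptors that bind the matrix protein Mmrn2, and Ecscr is a small regulator of endothelial signalling and migration. Egfl7 is secreted by endothelial cells into the matrix of growing vessels. Ctla2a is an inhibitor of cysteine proteases known from rodents, and Itm2a is a membrane protein whose gene is X-linked and enriched in brain endothelium.

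All 10 genes were present in every library, from 20 RPKM upward in the stroke experiment and from 1.95 RPKM upward in the other, and Mcam set both minima. The 18 other endothelial genes were present as well, at 3.54 RPKM or more in the stroke experiment and 21.2 RPKM or more in the other. Estimated depth, the trial depth with most whole reads among low values, was 4.76 to 19.6 M reads in the stroke libraries. There 27.7 to 41.7% of low values gave whole reads, and the depth is not given for the other 5. In 2 stroke libraries, Cko-NS 4 and Cko-ST 3, Xist and Y-linked RNA went against the labelled sex of the mouse. The libraries numbered 4 of both knockout groups read male and the other 14 stroke libraries female. Gpr124 itself was low everywhere, with 0.5, 1.72, 1.72 and 1.52 RPKM in Cko-ST, 2.03, 0.994, 3.15 and 4.85 RPKM in Cko-NS, 8.12, 5.94, 2.92 and 2.98 RPKM in WT-ST and 3.01, 7.58, 4.74 and 2.65 RPKM in WT-NS. The Cko-ST and WT-ST values did not overlap, as for 3.32% of all genes, but did not pass (log2 difference -1.28 ± 0.39, adjusted p = 0.764, limma). The Cko-NS and WT-NS values overlapped (-0.57 ± 0.39, adjusted p = 0.533, limma). These reads come from the 3' end of transcripts and none of the sources used here gives the deleted exons, so a read outside the deleted part checks nothing. Axin2, a direct target of beta-catenin, had 46.5, 54.5 and 44.2 RPKM in Bcat and 28.3 and 26.3 RPKM in WT, without overlap (0.80 ± 0.26 on the log2 scale, adjusted p = 0.901, limma). It did not pass, and 20.4% of all genes did not overlap there. Of other Wnt targets, Nkd1, Apcdd1 and Znrf3 were also higher in Bcat without overlap. Lef1 was lower without overlap (-0.56 ± 0.26, adjusted p = 0.957, limma), and Notum, Tcf7 and Tnfrsf19 overlapped.

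Promoters are shown for the 4 members with a RefSeq promoter and the largest differences in any comparison, since these members differed in opposite directions. Each run covers 250 bases before to 50 bases after the start of the gene on its own strand, from RefSeq's annotation of GRCm38.p6, and capitals mark a match to a searched motif. They are Mcam at chr9:44134408-44134707 on the plus strand, Itm2a at chrX:107403311-107403610 on the minus strand, Ctla2a at chr13:60936576-60936875 on the minus strand and Emcn at chr3:137340828-137341127 on the plus strand.
Mcam: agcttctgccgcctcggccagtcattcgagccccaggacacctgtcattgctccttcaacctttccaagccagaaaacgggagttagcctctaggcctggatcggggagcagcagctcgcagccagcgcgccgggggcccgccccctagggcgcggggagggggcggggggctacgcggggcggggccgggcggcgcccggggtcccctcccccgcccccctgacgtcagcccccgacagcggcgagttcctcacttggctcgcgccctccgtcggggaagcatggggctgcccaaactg
Itm2a: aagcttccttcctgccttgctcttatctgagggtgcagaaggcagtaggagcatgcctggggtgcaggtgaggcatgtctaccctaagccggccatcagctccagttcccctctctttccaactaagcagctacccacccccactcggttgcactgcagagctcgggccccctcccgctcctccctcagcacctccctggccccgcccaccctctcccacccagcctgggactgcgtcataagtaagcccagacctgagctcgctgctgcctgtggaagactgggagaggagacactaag
Ctla2a: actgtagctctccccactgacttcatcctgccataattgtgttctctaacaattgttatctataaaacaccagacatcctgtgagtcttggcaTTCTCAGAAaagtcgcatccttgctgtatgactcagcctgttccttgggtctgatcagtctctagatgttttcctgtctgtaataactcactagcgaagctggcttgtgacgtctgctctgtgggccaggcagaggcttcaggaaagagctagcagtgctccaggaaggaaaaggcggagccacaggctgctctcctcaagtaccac
Emcn: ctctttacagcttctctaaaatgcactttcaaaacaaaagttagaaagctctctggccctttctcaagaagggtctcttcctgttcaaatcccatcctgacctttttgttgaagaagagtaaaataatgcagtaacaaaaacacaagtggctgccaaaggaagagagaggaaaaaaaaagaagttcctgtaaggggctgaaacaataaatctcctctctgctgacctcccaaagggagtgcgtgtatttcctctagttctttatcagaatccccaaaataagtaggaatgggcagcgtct

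The Mcam promoter is a CpG-rich one, with 72.7% GC and 29 CpG pairs, against medians of 52.7% and 7 over 32851 mouse promoters of the same length. Itm2a had 62% GC and 7 CpG pairs, Ctla2a 49% and 4, and Emcn 41% and 2. Mcam thus lies above both medians and Emcn below them, and a link of promoter composition to the stroke response was not tested. Both strands of 11 promoter windows of 7 of the 10 members were searched for the interferon element ISRE, TTCNNNGAA (STAT), CCGGAA (ETS) and CTTTGAT (TCF/LEF). The STAT letters occurred in Ctla2a, from 157 bases before its start, and in 8.3% of all promoters. The TCF/LEF letters occurred in 1 of the 3 windows of Egfl7 and in 3.73% of all promoters. No window held ISRE or ETS letters, which occurred in 3.44% and 14.9% of all promoters.

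Mcam, on chromosome 9 from 44134469 to 44142727 (GRCm38, GENCODE, as for all genes here), had 181, 217, 135 and 233 RPKM in Cko-ST, 42.3, 34.1, 23.4 and 42 RPKM in Cko-NS, 156, 133, 204 and 155 RPKM in WT-ST and 27, 20, 20.4 and 35 RPKM in WT-NS. Every stroke-side library stood above every non-stroke library, and the genotypes overlapped on each side. Mcam rose in the stroke hemisphere of knockouts by 2.41 ± 0.23 on the log2(RPKM + 1) scale (SE, n = 4 each, adjusted p = 4.51e-06, limma) and of WT mice by 2.63 ± 0.23 (adjusted p = 1.15e-06, limma). The ratios of mean RPKM were 5.4 in knockouts and 6.33 in WT mice. Between genotypes it differed by 0.23 ± 0.23 in the stroke hemisphere (adjusted p = 0.998, limma) and by 0.45 ± 0.23 in the non-stroke one (adjusted p = 0.394, limma). Mcam also marks mural cells, and the 12 mural markers summed to 15.9 to 108 RPKM in Cko-ST, 23.5 to 34.1 RPKM in Cko-NS, 12.6 to 49.3 RPKM in WT-ST and 51.4 to 71.1 RPKM in WT-NS. Rgs5 led them in all 4 groups, 8 of the 12 averaged under 1 RPKM in each group, and 0 of the 4 that could be tested passed in either stroke comparison. The sums were lower in WT-ST than in WT-NS, and in knockouts they overlapped. Rgs5 averaged 34.6 RPKM in Cko-ST, 21.7 RPKM in Cko-NS, 19.2 RPKM in WT-ST and 49 RPKM in WT-NS. The part of mural cells in the Mcam values was not tested. In bulk samples fewer cells of a type and less RNA per cell cannot be told apart.

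Emcn, on chromosome 3 from 137341067 to 137432185, had 214, 272, 236 and 338 RPKM in Cko-ST, 144, 142, 158 and 156 RPKM in Cko-NS, 254, 205, 228 and 210 RPKM in WT-ST and 126, 167, 134 and 131 RPKM in WT-NS. The hemispheres did not overlap in either genotype. Emcn rose by 0.80 ± 0.15 in knockouts (adjusted p = 0.00166, limma) and by 0.69 ± 0.15 in WT mice (adjusted p = 0.00529, limma). The genotypes overlapped on each side and did not pass, with 0.22 ± 0.15 in the stroke hemisphere (adjusted p = 0.994, limma) and 0.11 ± 0.15 in the non-stroke one (adjusted p = 0.787, limma).

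Cd93, on chromosome 2 from 148436640 to 148443563, rose in both genotypes. It had 503, 517, 408 and 305 RPKM in Cko-ST, 116, 114, 117 and 166 RPKM in Cko-NS, 338, 362, 468 and 325 RPKM in WT-ST and 123, 112, 110 and 110 RPKM in WT-NS. The lowest stroke-side library lay well above the highest non-stroke one. The differences were 1.74 ± 0.18 in knockouts (adjusted p = 7.14e-06, limma) and 1.69 ± 0.18 in WT mice (adjusted p = 7.51e-06, limma). The interaction, the stroke effect in knockouts minus that in WT mice, was 0.05 with a 95% interval of -0.49 to 0.58. The knockout gave 0.20 ± 0.18 in the stroke hemisphere and 0.15 ± 0.18 in the non-stroke hemisphere, neither past the threshold.

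Clec14a, its relative on chromosome 12 from 58264720 to 58269290, gave values of the opposite sign, which did not pass. Clec14a had 29.8, 23.7, 41.1 and 30 RPKM in Cko-ST, 54.8, 35.2, 50.5 and 47.2 RPKM in Cko-NS, 47.8, 35.6, 27.5 and 23.5 RPKM in WT-ST and 54.4, 56.4, 54.8 and 27.5 RPKM in WT-NS. Means were lower on the stroke side and the groups overlapped. The differences were -0.58 ± 0.26 in knockouts (adjusted p = 0.145, limma) and -0.50 ± 0.26 in WT mice (adjusted p = 0.227, limma), neither past the threshold of 0.05. The 95% intervals were -1.13 to -0.03 in knockouts and -1.05 to 0.05 in WT mice. Those of Cd93 (1.36 to 2.12 in knockouts and 1.31 to 2.07 in WT mice) lay wholly above 0, and the difference between the 2 receptors was not itself tested. Mmrn2, the matrix protein that both bind, did not pass in either stroke comparison (0.34 ± 0.37 in knockouts and 0.55 ± 0.37 in WT mice).

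Ecscr, on chromosome 18, gave the largest value for stroke in WT mice among the 6 tested members, close to that of Mcam. Its levels were 213, 393, 265 and 383 RPKM in Cko-ST, 79.2, 84.4, 53.4 and 123 RPKM in Cko-NS, 253, 226, 212 and 306 RPKM in WT-ST and 38.6, 46.3, 25.3 and 29.5 RPKM in WT-NS. All 4 Cko-NS libraries lay above all 4 WT-NS libraries and below every stroke-side library. Ecscr rose by 1.89 ± 0.25 in knockouts (adjusted p = 8.14e-05, limma) and by 2.82 ± 0.25 in WT mice (adjusted p = 1.34e-06, limma), with ratios of mean RPKM of 3.69 in knockouts and 7.13 in WT mice. In the non-stroke hemisphere it rose with the knockout by 1.24 ± 0.25 (adjusted p = 0.046, limma), which was 1 of 6 tested members called where 0.315% of 9838 genes were called (0.224% higher). That call was lost in 11 of 18 alternatives, with adjusted p of 0.0259 to 0.147 over the 18 (limma). It was lost without the 2 libraries whose sex went against the label (1.04, adjusted p = 0.0775, limma) and without any 1 of 6 of the 8 libraries compared, namely WT-NS 1, 3 and 4 and Cko-NS 1, 2 and 4. The interaction was -0.94 ± 0.36 and did not pass (unadjusted p = 0.0178, adjusted p = 0.681, limma).

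Egfl7, on chromosome 2 from 26580014 to 26593120, had 164, 279, 260 and 260 RPKM in Cko-ST, 409, 335, 391 and 297 RPKM in Cko-NS, 205, 203, 131 and 461 RPKM in WT-ST and 176, 239, 226 and 142 RPKM in WT-NS. Cko-NS stood above both Cko-ST and WT-NS with no overlap, and WT-ST held both the lowest (WT-ST 3) and the highest (WT-ST 4) of the 16 libraries. No comparison passed. The values were -0.59 ± 0.29 for stroke in knockouts (adjusted p = 0.183, limma), 0.22 ± 0.29 for stroke in WT mice (adjusted p = 0.684, limma), 0.89 ± 0.29 for the knockout in the non-stroke hemisphere (unadjusted p = 0.00637, adjusted p = 0.167, limma) and 0.07 ± 0.29 in the stroke hemisphere. Without WT-ST 4 the stroke value in WT mice was -0.12.

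**Figure D1:**
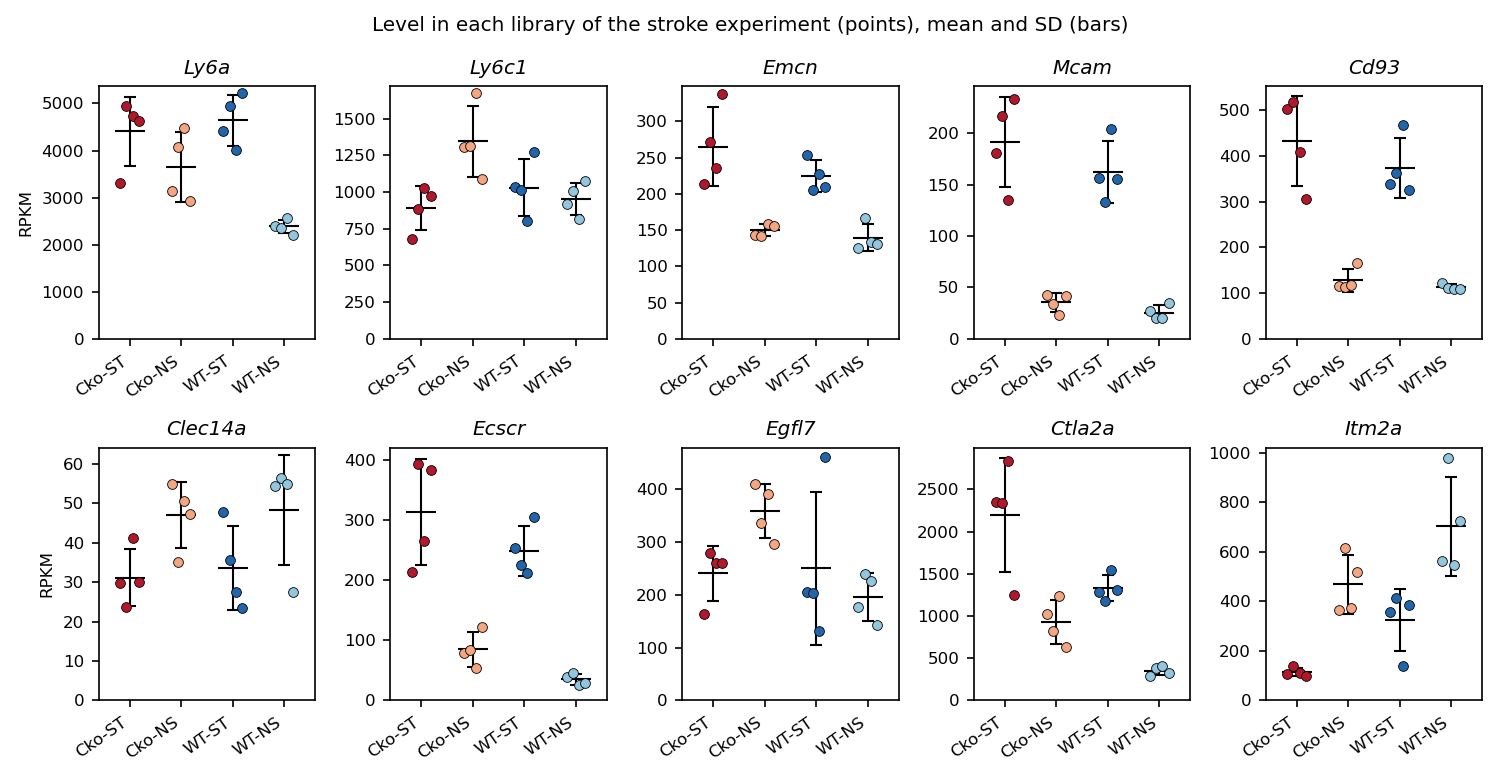
RPKM (linear axis from 0) of the 10 surface genes in the libraries of Cko-ST, Cko-NS, WT-ST and WT-NS; points are libraries, bars the mean and SD of 4. Emcn, Mcam, Cd93, Ecscr and Ctla2a stand higher on the stroke side in both genotypes, Itm2a lower, and Ly6a is lowest in WT-NS.

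Ly6a, at chromosome 15 from 74994877 to 74998031, was among the most abundant RNAs of these cells, ranking from 2nd in Cko-ST and in WT-ST to 9th in WT-NS by mean RPKM. It had 3310, 4947, 4729 and 4633 RPKM in Cko-ST, 3149, 4084, 4483 and 2924 RPKM in Cko-NS, 4407, 4944, 4012 and 5220 RPKM in WT-ST and 2403, 2365, 2565 and 2214 RPKM in WT-NS. WT-NS was the low group, with every library under the lowest of the other 12, and the other 3 groups overlapped. The differences were 0.27 ± 0.16 for stroke in knockouts, 0.95 ± 0.16 for stroke in WT mice, 0.60 ± 0.16 for the knockout in the non-stroke hemisphere and -0.09 ± 0.16 in the stroke hemisphere. Their interaction was -0.68 ± 0.22. Its values moved with the scaling, and quantile normalization gave 0.77 for stroke in knockouts, 1.13 for stroke in WT mice, 0.22 for the knockout in the non-stroke hemisphere and -0.36 for the interaction.

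Ly6c1, its neighbour at chromosome 15 from 75044018 to 75048830, differed in another place. It had 679, 885, 1026 and 974 RPKM in Cko-ST, 1308, 1315, 1672 and 1087 RPKM in Cko-NS, 1035, 1014, 801 and 1271 RPKM in WT-ST and 919, 1007, 818 and 1072 RPKM in WT-NS. Cko-NS was the high group, above every Cko-ST and every WT-NS library. Differences were -0.59 ± 0.17 for stroke in knockouts, 0.10 ± 0.17 for stroke in WT mice, 0.49 ± 0.17 for the knockout in the non-stroke hemisphere and -0.21 ± 0.17 in the stroke hemisphere. The value for stroke in WT mice was -0.06 with quantile normalization. The interaction was -0.69 ± 0.24. Within groups the pair varied together, with r = 0.72 between their deviations from group means over 16 libraries, which share depth and scaling.

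Ctla2a, on chromosome 13 from 60934155 to 60936625, had 2355, 2343, 2837 and 1247 RPKM in Cko-ST, 1019, 820, 1243 and 633 RPKM in Cko-NS, 1283, 1183, 1548 and 1310 RPKM in WT-ST and 289, 378, 411 and 330 RPKM in WT-NS. Its means ran from high to low as Cko-ST, WT-ST, Cko-NS and WT-NS, and neighbours in this order overlapped except Cko-NS and WT-NS. Differences were 1.22 ± 0.23 for stroke in knockouts, 1.92 ± 0.23 for stroke in WT mice, 1.37 ± 0.23 for the knockout in the non-stroke hemisphere and 0.67 ± 0.23 in the stroke hemisphere. The last rested on 3 of the 4 Cko-ST libraries, since Cko-ST 4 (1247 RPKM) lay inside the WT-ST range. By mean RPKM Ctla2a ranked 11th of all genes in Cko-ST and 143rd in WT-NS.

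Itm2a, on the X chromosome from 107397099 to 107403376, ran the other way. Its levels were 108, 139, 111 and 99.6 RPKM in Cko-ST, 366, 615, 374 and 520 RPKM in Cko-NS, 356, 413, 141 and 386 RPKM in WT-ST and 562, 978, 549 and 726 RPKM in WT-NS. Every Cko-ST library was below all 12 others, and WT-ST 3, at 141 RPKM, came nearest. Differences were -2.0 ± 0.29 for stroke in knockouts, -1.19 ± 0.29 for stroke in WT mice, -0.58 ± 0.29 for the knockout in the non-stroke hemisphere and -1.39 ± 0.29 in the stroke hemisphere. It was the only member whose Cko-ST and WT-ST libraries did not overlap (3.32% of all 9838 genes did not), and since Itm2a was picked for its pattern nothing is read from that share. The gene is X-linked and the libraries are of mixed sex. Without those that read male, stroke gave -1.88 in knockouts and -1.19 in WT mice, and the knockout gave -0.64 in the non-stroke and -1.33 in the stroke hemisphere.

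Of the 6 tested members, 4 rose and 0 fell with stroke in knockouts, against 15.2% of 9838 genes called (6.44% higher and 8.71% lower). In WT mice again 4 rose and 0 fell, against 13.3% called (8.46% higher and 4.84% lower). They were Mcam, Ecscr, Cd93 and Emcn in both. Since the 6 were picked with earlier results of these data known, these counts and medians are no unbiased sample of such genes. Groups did not overlap for 5 of the 6 in knockouts, beside 18.8% of all genes, and for 4 of the 6 in WT mice, beside 20.6%. The median difference of the 6 was 1.27 in knockouts and 1.19 in WT mice, against -0.13 in knockouts and 0.01 in WT mice for all genes. Between genotypes in the stroke hemisphere 0 of 6 passed, as did 0% of all genes (476 genes, 4.84%, at an unadjusted p under 0.05), and 0 of 6 reached that unadjusted level. In the non-stroke hemisphere 2 of the 6 did not overlap (Ecscr and Egfl7, both higher in Cko-NS), beside 8.7% of all genes. Ly6a, Ly6c1 and Ctla2a did not overlap there either, but they were picked for their pattern and are left out of that count. The interaction passed for 0 of 6 members and for 0% of all genes (limma, 691 genes, 7.02%, at an unadjusted p under 0.05). The stroke comparison of each genotype shares its non-stroke libraries with the knockout comparison of that hemisphere, so those values are not independent of each other.

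**Figure D2:**
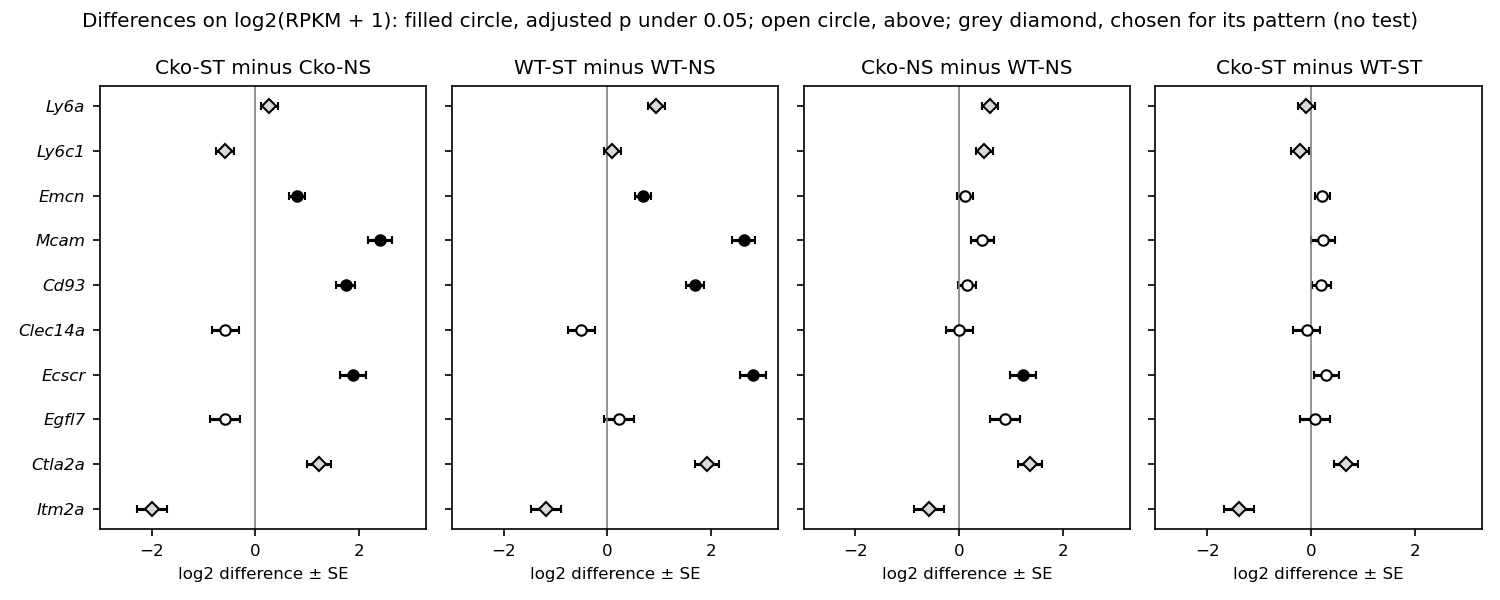
Log2 differences of log2(RPKM + 1) with SE for the 10 genes in 4 comparisons (x axis, log2 units; each point a difference of 2 group means of 4 libraries). Filled circles mark adjusted p under 0.05, open circles the rest of the 6 tested genes, and grey diamonds the 4 genes shown without a test; Mcam, Ecscr, Cd93 and Emcn are filled in both stroke panels.

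The median gene itself lay at -0.13 for stroke in knockouts, 0.11 for the knockout in the non-stroke hemisphere and -0.14 for the interaction, and other scalings brought these medians to -0.01, -0.01 and 0.00 to 0.01. Relative to the median gene, stroke in knockouts gave 2.54 for Mcam, 2.02 for Ecscr, 1.87 for Cd93, 0.93 for Emcn, 0.41 for Ly6a, -0.46 for Ly6c1 and -1.87 for Itm2a. On that footing the knockout in the non-stroke hemisphere gave 1.13 for Ecscr, 0.78 for Egfl7, 0.49 for Ly6a, 0.38 for Ly6c1 and 1.26 for Ctla2a. Each of these kept its sign with median-of-ratios and with quantile scaling. Without Cko-NS 4 and Cko-ST 3, stroke in knockouts gave 2.66 for Mcam, 2.15 for Ecscr, 1.89 for Cd93 and 0.86 for Emcn, all past the threshold (highest adjusted p = 0.00346, limma). Left out likewise, Ly6a stood at 0.13, Ly6c1 at -0.76, Clec14a at -0.71, Egfl7 at -0.72, Ctla2a at 0.91 and Itm2a at -1.93 for stroke in knockouts. For the knockout in the non-stroke hemisphere Ly6a stood at 0.70, Ly6c1 at 0.58, Egfl7 at 0.97, Ctla2a at 1.54 and Itm2a at -0.64. In the stroke hemisphere the knockout gave -0.13 for Ly6a, -0.28 for Ly6c1, 0.52 for Ctla2a and -1.38 for Itm2a without those libraries. The male-reading Cko-ST 4, the lowest of its group for Ctla2a, stayed in. With single libraries left out in turn, this Ctla2a value ran from 0.52 to 0.92.

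By mean RPKM the members spread from 31.2 to 4405 in Cko-ST and from 25.6 to 2387 in WT-NS, with Ly6a first in every group. In Cko-ST the order was Ly6a, Ctla2a, Ly6c1, Cd93, Ecscr, Emcn, Egfl7, Mcam, Itm2a and Clec14a, in which neighbours from Cd93 to Itm2a overlapped. Cko-NS ran Ly6a, Ly6c1, Ctla2a, Itm2a, Egfl7, Emcn, Cd93, Ecscr, Clec14a and Mcam, and neighbours overlapped except after Ly6a, Ctla2a and Egfl7. WT-ST ran Ly6a, Ctla2a, Ly6c1, Cd93, Itm2a, Egfl7, Ecscr, Emcn, Mcam and Clec14a, and neighbours overlapped except after Ly6a, Ly6c1, Emcn and Mcam. In WT-NS the order was Ly6a, Ly6c1, Itm2a, Ctla2a, Egfl7, Emcn, Cd93, Clec14a, Ecscr and Mcam, in which Ly6c1 and Itm2a, Egfl7 and Emcn, Clec14a and Ecscr, and Ecscr and Mcam overlapped. Itm2a thus stood 9th in Cko-ST and 3rd in WT-NS, and Ecscr 5th in Cko-ST and 9th in WT-NS. The gene lengths behind the RPKM are not given and stroke libraries hold 3' ends, so the order between genes is limited by the lengths used.

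In the beta-catenin experiment none of the 6 tested members passed (limma), as was the case for 0% of 11252 genes (590, 5.24%, at an unadjusted p under 0.05). Emcn came nearest, with 192, 188 and 111 RPKM in Bcat and 285 and 347 RPKM in WT. All 3 Bcat libraries lay below both WT libraries, which no other member showed, beside 20.4% of all genes without overlap. The difference was -0.98 ± 0.29 with a 95% interval of -1.62 to -0.34 (unadjusted p = 0.00736, adjusted p = 0.869, limma). Cd93 had 360, 227 and 163 RPKM in Bcat and 188 and 158 RPKM in WT, a difference of 0.46 (interval -0.27 to 1.19). Ecscr had 8.29, 22.3 and 21.8 RPKM in Bcat and 29.7 and 19.7 RPKM in WT, a difference of -0.57 (interval -1.61 to 0.48). Mcam had 1.95, 6.11 and 7.98 RPKM in Bcat and 5.15 and 4.87 RPKM in WT (difference -0.07, interval -1.44 to 1.30). Bcat 1 was the lowest library for Ecscr, Mcam, Clec14a, Ly6a and Ly6c1, but not for the other members, and it was the highest for Cd93.

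The 2 Ly6 genes overlapped between Bcat and WT. Ly6a had 792, 927 and 1258 RPKM in Bcat and 1229 and 1097 RPKM in WT (-0.25 ± 0.25), and Ly6c1 had 546, 853 and 999 RPKM in Bcat and 916 and 687 RPKM in WT (-0.03 ± 0.29). Ctla2a had 129, 171 and 93.8 RPKM in Bcat and 130 and 109 RPKM in WT (0.09 ± 0.28). Itm2a had 712, 852 and 565 RPKM in Bcat and 691 and 843 RPKM in WT (-0.12 ± 0.25). Egfl7 was the tightest, with 96.1, 105 and 119 RPKM in Bcat and 92.8 and 117 RPKM in WT, with an interval of -0.51 to 0.56 around a difference of 0.02. Clec14a had 17, 26.7 and 30.6 RPKM in Bcat and 20.9 and 33.4 RPKM in WT (interval -0.95 to 0.69). Mcam was the lowest member in both groups, at means of 5.35 RPKM in Bcat and 5.01 RPKM in WT, and Ly6a, Ly6c1 and Itm2a the highest.

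**Figure D3:**
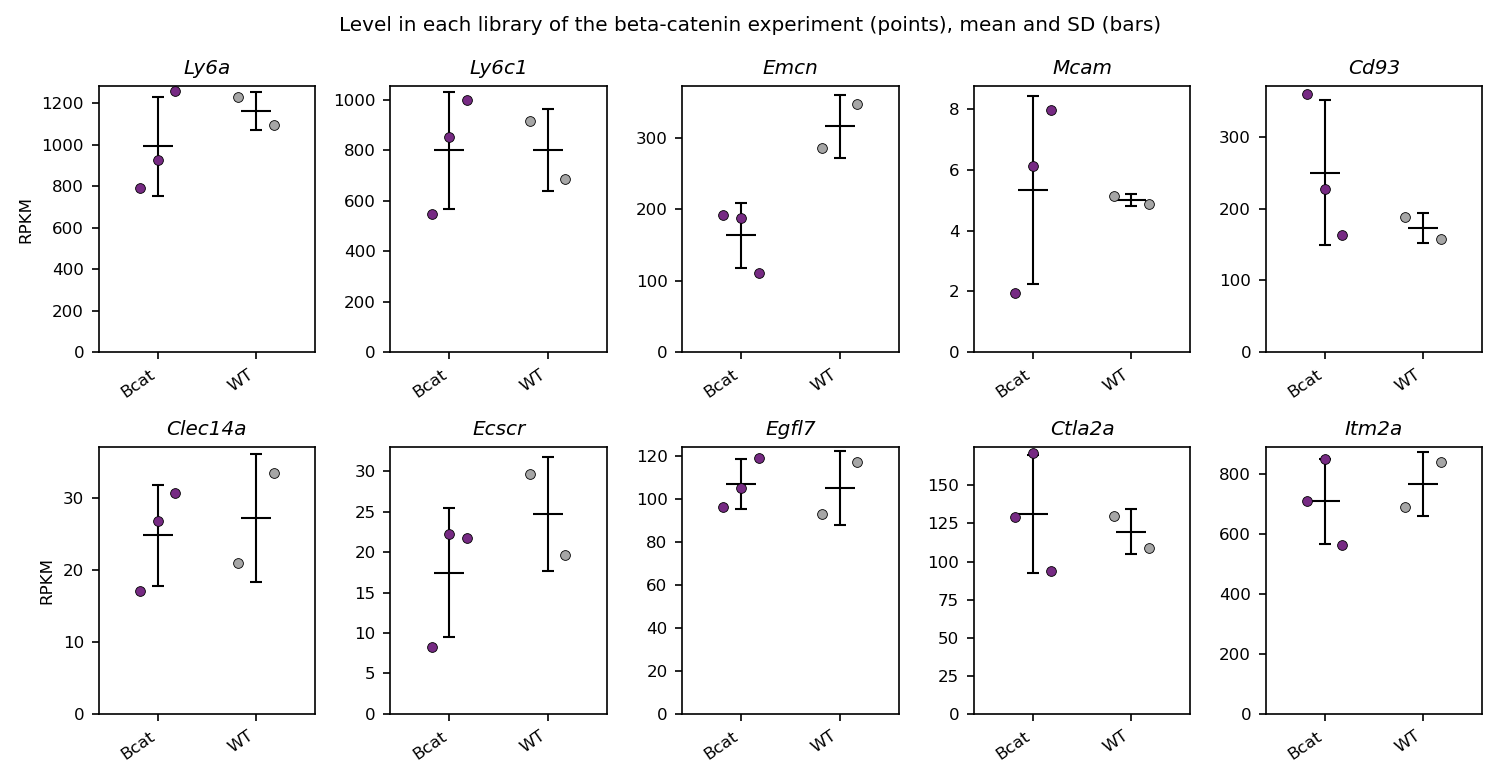
RPKM (linear axis from 0) of the 10 surface genes in 3 Bcat and 2 WT libraries of the beta-catenin experiment; points are libraries, bars the mean and SD. Emcn is the only gene whose groups do not overlap, lower in Bcat.

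Some members have near copies, and none of the sources used here says how reads that match more than 1 gene were counted. Ly6c2, at chromosome 15 from 75108158 to 75111970, shares 35.7% of the 36-base words of the last 500 bases of Ly6c1, so reads of the pair may be mixed. The ratio of Ly6c1 to Ly6c2 stayed between 1.72 and 2.15 in all 16 stroke libraries. In the beta-catenin experiment, whose levels are not set against these, it was 4.82 to 7.03 in Bcat and 6.27 to 6.42 in WT. Ly6c2 fell with stroke in knockouts by 0.64 on the log2 scale (adjusted p = 0.0126, limma) and differed by 0.05 in WT mice. Since its reads may include those of Ly6c1, which was picked for its pattern, this is no separate test. Ctla2b, at chromosome 13 from 60895350 to 60897447, shares 0% of such words in the last 500 bases of Ctla2a. Over the whole Ctla2a transcript it shares 11.8%, so some reads may be mixed where they do not come from the 3' end. It rose by 1.60 ± 0.24 in knockouts (adjusted p = 0.000231, limma) and by 1.89 ± 0.24 in WT mice (adjusted p = 4.87e-05, limma), and its groups averaged 483 RPKM in Cko-ST, 159 RPKM in Cko-NS, 294 RPKM in WT-ST and 78.1 RPKM in WT-NS. Between genotypes in the non-stroke hemisphere it differed by 0.96 ± 0.24 without overlap and did not pass (adjusted p = 0.0828, limma). Ly6i, from 74979534 to 74983430 beside Ly6a, shares 1.51% of such words with it. It rose by 0.85 ± 0.18 in knockouts (adjusted p = 0.0041, limma) and by 1.04 ± 0.18 in WT mice (adjusted p = 0.000974, limma). In the other experiment Ly6i reached at most 0.491 RPKM in Bcat and was listed at 0 in both WT libraries, beside Ly6a at 792 to 1258 RPKM in Bcat.

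**Figure D4:**
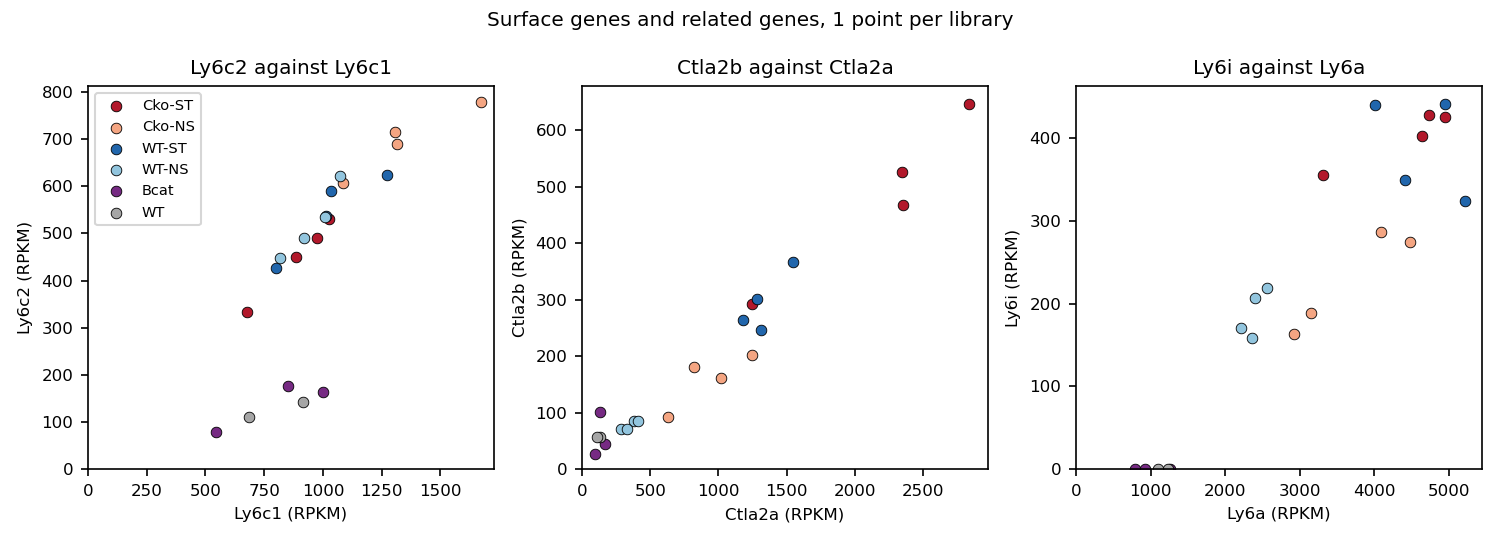
RPKM of Ly6c2 against Ly6c1, Ctla2b against Ctla2a and Ly6i against Ly6a (both axes linear from 0), 1 point per library, coloured by group. The 16 stroke libraries lie near 1 line for Ly6c1 and Ly6c2 (ratio 1.72 to 2.15); the 5 Bcat and WT libraries came from another kit, and their positions are not compared with the rest.

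Genes of the wider Ly6/uPAR family were called in both directions. Of 29 other family genes 28 were in the table and 8 reached the minimum level; with stroke in knockouts 2 rose and 4 fell, beside 15.2% of all genes called, and in WT mice 2 rose and 2 fell, beside 13.3%. Plaur, the urokinase receptor, rose by 2.39 ± 0.33 in knockouts (adjusted p = 9.02e-05, limma) and by 2.84 ± 0.33 in WT mice (adjusted p = 1.68e-05, limma). The complement inhibitor Cd59a fell by 1.44 in knockouts and by 0.84 in WT mice on the log2 scale. Cd59b also fell in both, and Lypd1 in knockouts. The other gene counted as fallen in knockouts was Ly6c2, whose reads may be mixed with those of Ly6c1. The median of the 8 was -0.67 in knockouts and -0.03 in WT mice, against -0.13 and 0.01 for all genes. Of 12 measured relatives and partners of the other members, 3 rose and 1 fell in knockouts and 4 rose and 1 fell in WT mice, beside the same shares of all genes. Thbd (thrombomodulin), a relative of Cd93 and Clec14a, rose by 1.23 ± 0.17 in knockouts and 1.03 ± 0.17 in WT mice. Cd34, a sialomucin like Emcn, rose by 0.58 ± 0.17 in knockouts and 0.60 ± 0.17 in WT mice. Itm2b, the relative of Itm2a, fell on the log2 scale by 1.34 in knockouts (adjusted p = 2.69e-05, limma) and by 0.97 in WT mice (adjusted p = 0.000525, limma).

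Of the 18 other endothelial genes 1 rose and 4 fell with stroke in knockouts, beside 6.44% of all genes higher and 8.71% lower. In WT mice 3 rose and 2 fell, beside 8.46% higher and 4.84% lower. Cdh5 (VE-cadherin) rose by 0.75 ± 0.16 in knockouts and 0.72 ± 0.16 in WT mice. The receptors Tek and Ptprb fell in both, Tek on the log2 scale by 0.80 in knockouts and 0.49 in WT mice. Pecam1, the CD31 used for the sort, had 0.32 ± 0.13 in knockouts (adjusted p = 0.121, limma) and rose by 0.45 ± 0.13 in WT mice (adjusted p = 0.032, limma). Their median was -0.20 in knockouts and 0.18 in WT mice. In the non-stroke hemisphere 2 of the 18, Robo4 (1.17 ± 0.23, adjusted p = 0.0317, limma) and Nos3 (1.40 ± 0.29, adjusted p = 0.046, limma), rose with the knockout, where 0.315% of all genes were called. The call of Robo4 was lost in 8 of 18 alternatives (adjusted p of 0.0194 to 0.117, limma) and that of Nos3 in 11 of 18 (0.0279 to 0.147), both among them without WT-NS 4, which left 1 gene called of 31. None of the 18 passed between genotypes in the stroke hemisphere, for the interaction or in Bcat (limma; the counts for all genes are those given above).

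**Figure D5:**
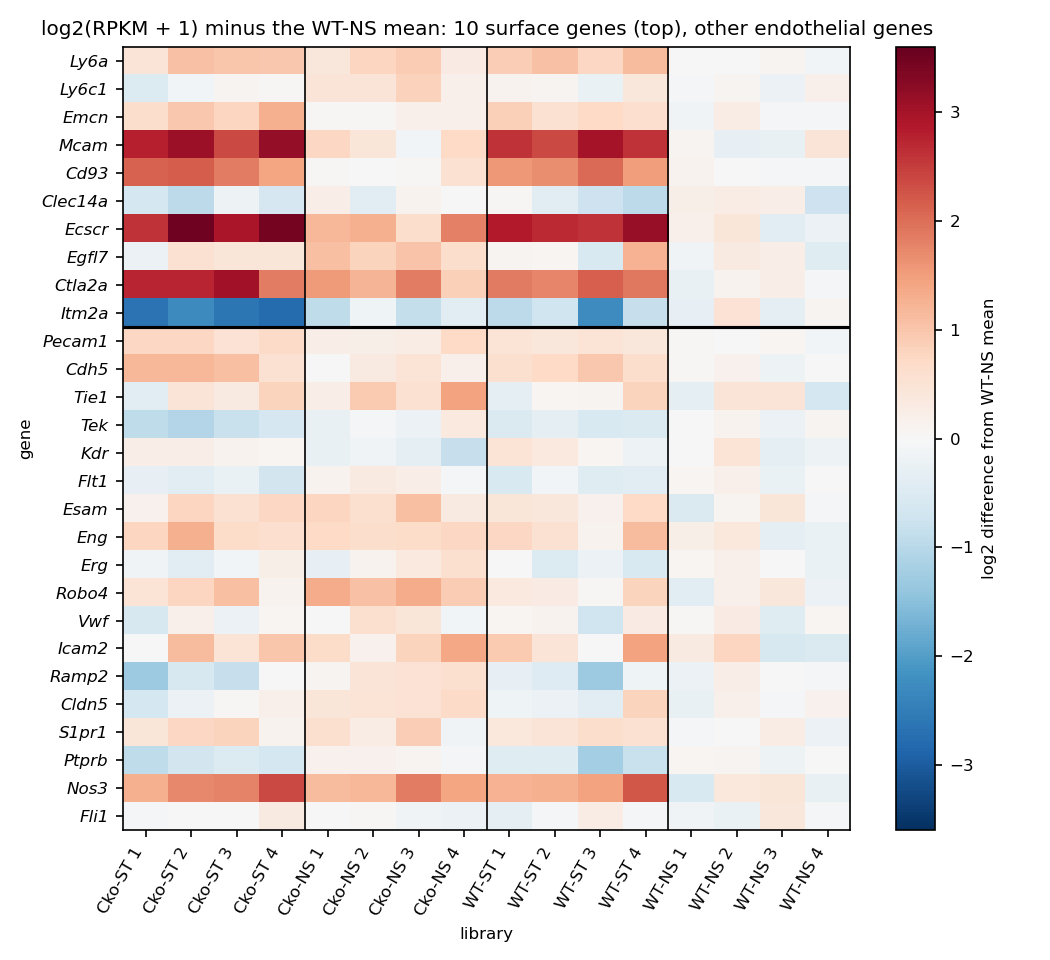
Difference of log2(RPKM + 1) from the WT-NS mean (colour, log2 units) for the 10 surface genes above the line and 18 other endothelial genes below it, in the libraries of Cko-ST, Cko-NS, WT-ST and WT-NS. Mcam, Ecscr, Cd93 and Ctla2a are strongly higher and Itm2a lower in the stroke-side columns, while most genes below the line stay pale.

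Gene sets for pathways of this tissue gave the following counts. Over all genes 6.44% rose and 8.71% fell with stroke in knockouts, and 8.46% rose and 4.84% fell in WT mice. Of 23 measured interferon-response genes 2 rose and 1 fell in knockouts and 2 rose and 0 fell in WT mice, which is near those shares. Those that rose were Ifitm3 (1.33 ± 0.18 in knockouts and 1.89 ± 0.18 in WT mice) and Cxcl10 (2.36 ± 0.39 in knockouts and 2.19 ± 0.39 in WT mice), and Gbp2 fell in knockouts. Of 8 measured Wnt targets 5 fell and 0 rose in each genotype. Among them Axin2 fell on the log2 scale by 1.56 in knockouts and by 1.43 in WT mice. It was low, with means of 0.249 RPKM in Cko-ST, 2.66 RPKM in Cko-NS, 1.04 RPKM in WT-ST and 4.59 RPKM in WT-NS. Adding 1 RPKM before the log shrinks differences at such levels. Of 12 tip-cell and angiogenic genes 7 rose in knockouts and 6 in WT mice, among them Apln, which rose by 4.03 ± 0.40 in knockouts and by 4.22 ± 0.40 in WT mice. Col4a1 and Col4a2 of that set also rose with the knockout in the non-stroke hemisphere, Col4a1 by 0.96 ± 0.20 (adjusted p = 0.046, limma) and Col4a2 by 1.31 ± 0.20 (adjusted p = 0.0143, limma). The call of Col4a1 was lost in 12 of 18 alternatives (adjusted p of 0.019 to 0.147, limma) and that of Col4a2 in 1 of 18, without WT-NS 4 (0.00925 to 0.0589). No gene of these sets passed in Bcat against WT (limma), where the median of the 8 Wnt targets was 0.59 against -0.06 for all genes.

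Markers of other cells varied between libraries, and their part in the results was not tested. The 12 leukocyte markers counted here, without Ly6c2, summed to 4.48 to 24.1 RPKM in Cko-ST, 10.5 to 90.1 RPKM in Cko-NS, 2.23 to 106 RPKM in WT-ST and 0 to 14 RPKM in WT-NS, with Ccr2, Nkg7 and Plac8 at 0 in all 16. Leukocytes also express Ly6c1 and Ly6a. The 9 fibroblast markers summed to at most 2.09 RPKM, with Col1a1 and Dpt at 0 in every stroke library. The 12 microglia and macrophage markers summed to 15 to 31 RPKM in Cko-ST, 19.8 to 38.9 RPKM in Cko-NS, 8.17 to 31.3 RPKM in WT-ST and 15.2 to 119 RPKM in WT-NS. Sums for the 9 oligodendrocyte markers were 51.5 to 754 RPKM in Cko-ST, 69.5 to 1082 RPKM in Cko-NS, 62 to 1126 RPKM in WT-ST and 362 to 2035 RPKM in WT-NS, led by Cldn11. Those of the 6 choroid plexus markers, led by Ttr, were 4.41 to 999 RPKM in Cko-ST, 88.8 to 1331 RPKM in Cko-NS, 15.4 to 600 RPKM in WT-ST and 291 to 476 RPKM in WT-NS. The 8 red cell and platelet markers, led by Hbb-bs, had the highest sums, of 1058 to 12793 RPKM in Cko-ST, 3950 to 26500 RPKM in Cko-NS, 2466 to 7303 RPKM in WT-ST and 5540 to 9646 RPKM in WT-NS. The median of the 5 that could be tested was -1.58 for stroke in knockouts and -1.02 in WT mice, and 0 of 5 passed (limma). The 8 neuron markers summed to 5.15 to 8.94 RPKM in Cko-ST, 11.4 to 60.9 RPKM in Cko-NS, 9.93 to 21.2 RPKM in WT-ST and 19.1 to 26.7 RPKM in WT-NS, and of the 3 that could be tested Snap25 fell with stroke in knockouts. The 7 astrocyte markers summed to at most 18.2 RPKM in any stroke library.

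Genes most like each member were sought over the 16 stroke libraries among 9838 genes, by Pearson's r of log2(RPKM + 1). These r describe libraries that share groups, depth and scaling. Ly6c1 was closest to Ly6c2 (r = 0.96, and 0.94 for deviations from group means) and Ctla2a to Ctla2b (0.98 and 0.90). Ly6a was closest to Igfbp7 (0.91 and 0.64), Emcn to Ptpre (0.96 and 0.74), Mcam to Eif1a (0.98 and 0.57) and Cd93 to Galnt1 (0.98 and 0.76). Ecscr was closest to Rpl10a (0.98 and 0.89), Clec14a to Ube2h (0.88 and 0.84) and Egfl7 to Arf5 (0.89 and 0.84). Among the members themselves, Mcam and Cd93 had r = 0.95 over all 16 libraries and 0.21 once group means were removed. Ly6c1 and Egfl7 had 0.74 and 0.64, and Ly6c1 and Cd93 had -0.49 and -0.68. Ecscr and Ctla2a, with r = 0.84 over all libraries, had -0.63 within groups.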

How the data were processed

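The authors deposited RPKM values in a table of 24260 rows, made with edgeR and the mm10 genome (GRCm38) per the submitters' processing notes. Aligner, annotation and gene lengths were not given in the sources used here. Of 29 columns 21 were used, and 8 belong to no sample described here. The 54 rows sharing 23 names were left out. Low values gave whole reads too seldom (tolerance 0.02) for a count test. Chance gives 4% at a fixed depth and more at the best of many trial depths, for which the shares are given.

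limma 3.58.1 in R 4.3.3 was run on log2(RPKM + 1), which understates differences of low genes, for genes with a mean of at least 1 RPKM. The 16 stroke libraries were fitted together with a mean for each group, and the other 5 in a fit of their own. Tests were moderated (eBayes with trend), two-sided and adjusted by Benjamini-Hochberg over all genes, with a threshold of 0.05. No test covers Xist or the Y-linked genes Uty, Kdm5d, Eif2s3y and Ddx3y. The fit was tested on simulated data.

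Members and lists were chosen with earlier results of these data known. Named were all members, the genes most like each by r (that of Itm2a is not reported here), up to 4 genes of each list with the lowest p, and near copies. Shared replicate numbers were checked by the correlation of deviations from group means. It was 0.1005 to 0.2135 in all 4 pairs of Cko-ST and Cko-NS and 0.01167 to 0.13 in those of WT-ST and WT-NS. Between genotypes, where a number cannot mark the same mouse, it reached 0.09936 (Cko-NS 2 and WT-NS 2). The best match of each Cko-ST library was the Cko-NS library of its own number. The same held for WT-ST 1, 2 and 3 against WT-NS, but not for WT-ST 4. Between genotypes it held only for Cko-NS 1 and 2 and for Cko-ST 2. The male-reading Cko-NS 4 and Cko-ST 4 also share a number. Equal numbers within a genotype may thus mark 1 mouse, which the labels do not say. The main fit holds no block and treats the libraries as independent. Coordinates came from GENCODE and promoters from RefSeq. Alternatives were pseudocounts of 0.1 and 0.5, no minimum or 5 RPKM, median-of-ratios and quantile scaling, a replicate block, robust eBayes without trend, and leaving out each library, the libraries against their sex label or those that read male. The block joined hemispheres of equal number within a genotype for stroke and the interaction. For the knockout comparisons and Bcat it joined equal numbers across genotypes, which are different mice.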

Additional observations from a re-analysis of the deposited data

Results flagged for a closer look

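A library was far from the other 3 of its group, by Dixon's test at the 95% level, for 3 of the 40 combinations of member and stroke group, and chance flags about 1 in 20. Cd93 had 166 RPKM in Cko-NS 4, against 114 to 117 RPKM in the other Cko-NS libraries (gap over range 0.943). Cko-NS 4 is also a library whose sex by RNA went against its label. Clec14a had 27.5 RPKM in WT-NS 4, against 54.4 to 56.4 RPKM in the other WT-NS libraries (0.93). Egfl7 had 164 RPKM in Cko-ST 1, against 260 to 279 RPKM in the other Cko-ST libraries (0.833).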

How the results depend on the processing

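The 4 calls among 6 members (Mcam, Ecscr, Cd93, Emcn) held in both stroke comparisons under all 18 alternatives. For the knockout in the non-stroke hemisphere the member count was 0 with no minimum level, with median-of-ratios scaling, without eBayes trend, without the libraries against their sex label and without those that read male, and 0 to 1 when libraries were left out in turn. Genes called there numbered 31, but 19 with no minimum, 84 with a minimum of 5 RPKM, 60 with the replicate block, 12 without trend, 75 without male-reading libraries, and 1 (without WT-NS 4) to 41 with libraries left out. WT-NS 1, Cko-NS 1 and Cko-NS 3 left 11, 17 and 9. The block in this comparison joined equal numbers of different mice, so its count is not that of a paired design. In the stroke hemisphere 0 genes were called, but 8 without WT-ST 3 and 3 without Cko-ST 3 (0 to 8 overall). The replicate block gave 1576 genes for stroke in knockouts (682 higher, 894 lower) and 1460 in WT mice, and changed no member's call. Median-of-ratios scaling turned the split of stroke calls in knockouts to 868 higher and 599 lower (634 and 857 as reported) and that of the knockout in the non-stroke hemisphere to 14 and 15 (22 and 9 as reported).

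Among the members tested, signs turned only for differences that had not passed; the cause was not tested. For the knockout in the non-stroke hemisphere Emcn was -0.03 with median-of-ratios scaling, and Clec14a ran from -0.25 to 0.13 with libraries left out. In the stroke hemisphere Clec14a ran from -0.23 to 0.10 and Egfl7 from -0.18 to 0.42. Interactions with libraries left out ran from -0.01 to 0.21 for Emcn, -0.05 to 0.21 for Cd93 and -0.23 to 0.17 for Clec14a, which was 0.09 with median-of-ratios and 0.02 with quantile scaling. The Mcam interaction was 0.02 without the libraries against their sex label. Egfl7 for stroke in WT mice ran from -0.12 (without WT-ST 4) to 0.48. In Bcat, Mcam was 0.03 with quantile scaling and ran from -0.39 to 0.41, Clec14a from -0.46 to 0.20 and Egfl7 from -0.14 to 0.19, with -0.06 under the block. Of 666 recomputed differences of the 6 tested members 627 kept direction and side of the threshold.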
